A study of Bos taurus with 20 samples.

Results

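Amino acid transporters are membrane proteins that carry amino acids into and out of cells. SLC43A2 was described together with 5 other genes of amino acid transport, SLC7A5, SLC3A2, SLC38A2, SLC1A5 and SLC7A8. The tissue was Musculus longissimus dorsi, the long back muscle, of 20 bulls. Members were found as all probe sets that the platform annotation assigns to exactly 1 of these 6 symbols. This gave 6 probe sets for 5 genes, of 24016 probe sets without array controls, and 0 probe sets for SLC7A8, which is not analysed here. SLC43A2 had been picked from these same arrays for its lower value in high intramuscular fat (IMF), so that difference is given below as a description without a test.

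The animals were Holstein x Charolais F2 bulls, a second-generation cross of a dairy and a beef breed, with 10 animals of high IMF and 10 of low IMF and 1 Affymetrix GeneChip per animal. The labels give IMF as high or low only, with no fat percentage, age or feeding, and no treatment. The animal numbers in the titles are of 2 kinds, with an S (10 animals) and without (10 animals), and each kind holds 5 high and 5 low IMF animals. What the S stands for is not stated, and the 2 kinds are called title series here.

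In muscle, amino acid uptake supplies protein synthesis and fuel, and leucine inside the cell also switches on mTORC1, the kinase complex that promotes protein synthesis. Several of these carriers work in chains. SLC38A2 and SLC1A5 bring small neutral amino acids such as glutamine into the cell together with sodium. The dimer of SLC7A5 and SLC3A2, known as LAT1 and 4F2hc, can exchange glutamine for leucine and other large neutral amino acids. SLC43A2, known as LAT4, is a sodium-independent uniporter that lets branched-chain amino acids, phenylalanine and methionine flow down their gradient.

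The deposited values are linear intensities per probe set, and array medians lay between 51.6 and 67.7. Values were taken as log2(value + 1). Next to log2 of the value alone this scale shrinks changes of dim probe sets, but signals near 0 can still enlarge their differences. The 40% of probe sets with the lowest mean were left out, and 14409 were tested with limma and Benjamini-Hochberg adjustment over all of them. Of the 6 member probe sets, 4 passed this filter. SLC7A5 and the second SLC38A2 probe set did not, and their values are descriptions, apart from a fit without the filter. A probe set's signal depends on its own probes, so levels are compared between animals and not between genes. The markers of muscle fibres on the array, 10 of 12, were at 0 on no array, with summed signals from 132133 to 148835 in high IMF and from 133396 to 155793 in low IMF. These are bulk samples, so fewer cells of a type and less RNA per cell cannot be told apart.

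SLC43A2 had lower values in high IMF muscle in both title series. Its signals were 429, 368, 431, 780 and 549 in the high IMF animals with S, against 1522, 510, 713, 939 and 815 in the low IMF animals with S. In the animals without S they were 313, 269, 312, 380 and 644 in high IMF, against 410, 1042, 400, 500 and 623 in low IMF. The groups overlapped in both series, and 9 of 10 high IMF animals lay below the low IMF median of 668. The exception was high IMF replicate 9, an S animal.

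On the log2 scale SLC43A2 averaged 8.73 ± 0.49 in the high IMF bulls and 9.42 ± 0.62 in the low IMF bulls (SD, 10 animals each). The difference was -0.69 (SE 0.24), or 0.620-fold, with -0.77 among S animals and -0.61 among those without S. This difference chose the gene, and its size describes the choice. Across all probe sets, limma called 0 of 14409 for high against low IMF (0% called), with 239 at an unadjusted p under 0.05, and an unpaired t-test with the same adjustment also called 0. These fits held no term for title series, so differences between the series entered their error. With title series in the model limma called 0 as well, with 1057 at an unadjusted p under 0.05 (lowest limma adjusted p = 0.4505). SEs of IMF differences are from the fit without title series unless stated. The median log2 difference of all tested probe sets was -0.03. A larger IMF difference in one title series than in the other was not called for SLC43A2 (interaction -0.16, SE 0.43, limma adjusted p = 0.956).

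Ordered by level, SLC43A2 averaged 8.51 ± 0.49 in high IMF without S, 8.95 ± 0.42 in high IMF with S, 9.12 ± 0.57 in low IMF without S and 9.72 ± 0.58 in low IMF with S (SD, 5 animals each). The signals of each of these 4 sets overlapped those of its neighbours in this order. SLC43A2 also varied more between animals of the same kind than most genes. Within the 4 sets its SD was 0.52 log2 units, larger than in 94.4% of tested probe sets, whose median was 0.25. Among the 500 probe sets nearest to it in mean level, 97.4% had a smaller SD.

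**Figure D1:**
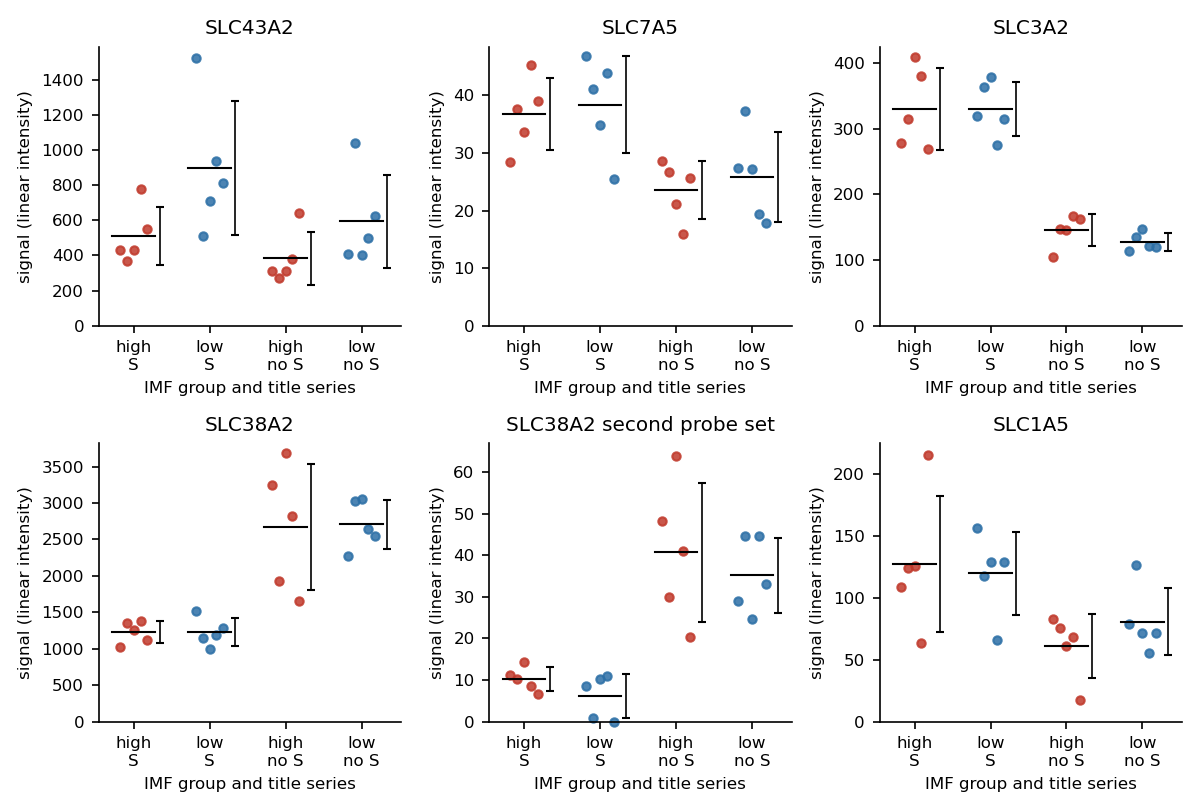
Signal of each member probe set on a linear axis, 1 point per animal, by IMF group (red high, blue low) and title series. Horizontal lines are means of 5 animals and vertical bars the SD. SLC43A2 is lower in high than in low IMF in both title series. SLC3A2 and both SLC38A2 probe sets, the second of them not tested, part the title series without overlap, as do 19.6% of all tested probe sets.

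Values of fat cell and macrophage markers are given beside SLC43A2. The summed signal of the 8 fat cell markers on the array, of 9 listed, ran from 1231 to 21944 in high IMF and from 443 to 9971 in low IMF, and the 8 macrophage markers, of 10 listed, from 395 to 1114 in high IMF and from 376 to 1098 in low IMF. None of either list was at 0. Of the fat cell markers 5 were tested, and all 5 had higher values in high IMF, with a median log2 difference of 1.65 and 0 called. Without 4 arrays with an albumin signal over 2000 the median was 0.84 and 1 of the 5 was lower in high IMF. SLC43A2 was set against the mean log2 level of 7 marker lists and against 3 array measures, within each title series, giving 20 relations of 10 animals each. The largest r was with the GAPDH 3′ to 5′ signal ratio, a measure of RNA integrity, in the S animals (r = -0.65, permutation p = 0.0416, adjusted 0.833). Spearman's rho was -0.58 (permutation p = 0.0882, adjusted 0.757), and r was -0.40 without the 2 animals farthest from the median SLC43A2 value. The largest rho was with the liver markers in the S animals, -0.77 (permutation p = 0.013, adjusted 0.26). There r was -0.46 (permutation p = 0.179, adjusted 0.873), and -0.50 without the 2 farthest animals. For the fat cell markers r was -0.26 among S animals (permutation p = 0.471, adjusted 0.873) and -0.46 among those without S (permutation p = 0.179, adjusted 0.873). Their rho was -0.30 (permutation p = 0.405) and -0.33 (permutation p = 0.347), both 0.884 when adjusted. Without the 2 farthest animals r was -0.70 among S animals and -0.74 among those without S. None of the 20 relations passed adjustment, and the part of these measures in the SLC43A2 difference was not tested beyond this.

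Of 4 arrays with an albumin signal over 2000, a liver transcript, 3 were of high IMF. Without these 4 arrays the SLC43A2 difference was -0.84. Leaving out each animal in turn gave -0.79 to -0.56, the smallest size without low IMF replicate 6, the highest value of all.

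SLC7A5, the transporting light chain of the LAT1 dimer, was dim. Its signals ran from 15.96 to 45.2 with a median of 28.5 in high IMF, against 17.8 to 46.8 with a median of 31.1 in low IMF. The log2 difference was -0.08, with -0.05 among S animals and -0.10 among those without S. The groups overlapped nearly fully, and 6 of 10 high IMF animals lay below the low IMF median. Between title series the signals ran from 25.5 to 46.8 with S and from 15.96 to 37.4 without S. The log2 difference was 0.60, or 1.52-fold, and 6 of 10 S animals lay above all animals without S. When all probe sets were tested without the filter, this difference was called by limma (adjusted p = 0.00166), beside 12549 of all 24016 probe sets.

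SLC3A2, the heavy chain that brings SLC7A5 and other light chains to the cell surface, had nearly the same mean in both IMF groups. Its signals in the S animals were 278, 315, 410, 381 and 270 in high IMF, against 320, 365, 379, 276 and 315 in low IMF. In the animals without S they were 104, 148, 146, 167 and 163 in high IMF, against 113.2, 135, 147, 122 and 119 in low IMF. All 10 S animals lay above all 10 others, whatever their IMF group.

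For IMF the log2 difference of SLC3A2 was 0.09 (SE 0.29, limma adjusted p = 0.9997, 95% interval -0.58 to 0.75), with -0.01 among S animals and 0.18 among those without S. This interval, like those of SLC38A2 and SLC1A5 below, comes from a t-test of the IMF groups without title series. With title series in the model the SE was 0.10 (limma adjusted p = 0.866). For title series SLC3A2 averaged 8.36 ± 0.22 with S and 7.09 ± 0.23 without S (SD, n = 10 each). This difference of 1.27 (SE 0.10), or 2.41-fold, passed limma's test with IMF group in the model (adjusted p = 1.82e-09).

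Title series differed widely, however. By limma 9838 of 14409 probe sets were called between them (68.3% called), 33.4% higher and 34.8% lower in S animals. Groups without overlap were found for 19.6% of probe sets, 10.4% higher and 9.27% lower in S. The difference of SLC3A2 was larger in size than that of 96.1% of tested probe sets. The bacterial bioB transcripts, added to every sample as hybridisation controls, also parted the series, with mean signals from 204 to 355 on S arrays and from 397 to 482 on the others. The GAPDH 3′ to 5′ ratio overlapped, from 0.722 to 0.823 with S and from 0.729 to 0.878 without. The actin 3′ to 5′ ratio ran from 0.601 to 0.886 with S (median 0.767) and from 0.771 to 1.004 without (median 0.864), with overlap. Fat cell markers were called higher in S for 5 of 5 tested genes (median log2 difference 1.58), but for 1 of 5 without the 4 arrays with an albumin signal over 2000. Macrophage markers were called higher in S for 4 of 5 (median 0.91). The part of these measures in the title series differences was not tested. The title series and the difference in control signals cannot be told apart, here and for each title series difference below.

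SLC38A2, the sodium-coupled carrier known as SNAT2, had lower values in S animals on both its probe sets. On the brighter one the S animals had 1026, 1356, 1261, 1379 and 1127 in high IMF, against 1518, 1144, 998, 1186 and 1284 in low IMF. The animals without S had 3253, 1928, 3689, 2826 and 1662 in high IMF, against 2272, 3029, 3061, 2638 and 2545 in low IMF. All S animals lay below all others.

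The S animals averaged 10.25 ± 0.19 and the others 11.36 ± 0.35 on the log2 scale (SD, n = 10 each). The difference of -1.11 (SE 0.13), or 0.465-fold, passed limma's test (adjusted p = 1.98e-07) and was larger in size than that of 92.6% of tested probe sets. It was -1.06 among high IMF and -1.15 among low IMF animals. On the second, dim probe set, signals ran from 0.01 to 14.2 with S and from 20.45 to 63.8 without, again with no overlap. There the log2 difference was -2.36, or -1.15 with a pseudocount of 16, and 2 of the S animals were below 1. For IMF the brighter probe set differed by -0.03 (SE 0.27, limma adjusted p = 0.9997, 95% interval -0.64 to 0.58). With title series in the model its SE was 0.13 (limma adjusted p = 0.964). The dim one differed by 0.67 with an SD of 1.08 in high IMF and 1.90 in low IMF. It differed by 0.19 with a pseudocount of 16 and by 0.26 without low IMF replicate 10.

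SLC1A5, the glutamine exchanger known as ASCT2, was higher in S animals with overlap. Its signals in the S animals were 109, 124, 126, 63.8 and 215 in high IMF, against 156, 118, 129, 66.2 and 129 in low IMF. In the animals without S they were 83.3, 75.9, 61.5, 68.6 and 17.4 in high IMF, against 78.7, 127, 71.8, 55.5 and 71.6 in low IMF. High IMF replicate 5, at 17.4, stood far below the other animals.

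The title series difference of SLC1A5 was 0.84 (SE 0.26), or 1.79-fold, and passed limma's test (adjusted p = 0.00709). It did not pass without the 4 arrays high in albumin (0.60, adjusted p = 0.0882). For IMF the difference was -0.23 (SE 0.31, limma adjusted p = 0.9997, 95% interval -0.95 to 0.48), with 0.04 among S animals and -0.51 among those without S. With title series in the model the SE was 0.26 (limma adjusted p = 0.859). Without high IMF replicate 5 the IMF difference was 0.0037. SLC1A5 had a within-set SD of 0.63, larger than in 97.4% of tested probe sets, against 0.22 for SLC3A2 (38.9%) and 0.30 for SLC38A2 (65.5%).

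SLC43A2 itself averaged 9.33 ± 0.63 in S animals and 8.82 ± 0.59 in the others (SD, n = 10 each), a contrast that did not choose it. The difference of 0.52 (SE 0.21), or 1.43-fold, passed limma's test (adjusted p = 0.0335), but 59.7% of tested probe sets differed by less, so its size was common. The call was lost in 9 of 20 fits that left out 1 animal, with adjusted p up to 0.0701. All 4 tested members were thus called between title series, 3 higher and 1 lower in S animals, beside 68.3% of all probe sets. The interaction of IMF and title series was called for none of the 4 by limma, nor for any probe set (0% called, 769 at an unadjusted p under 0.05). The median interaction of all probe sets was -0.11.

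**Figure D2:**
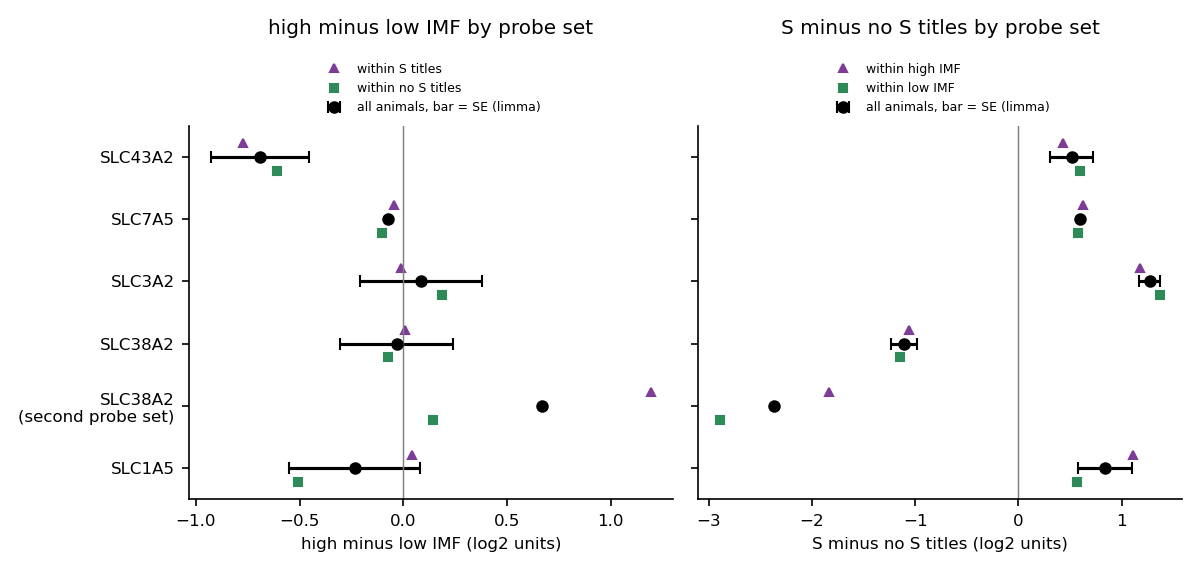
Log2 differences per member probe set, high minus low IMF at left and S minus no S titles at right, with limma's SE for the 4 tested probe sets (black) and the values within title series or IMF groups (coloured). The SE of IMF differences is that of the fit without title series. SLC43A2 lies at -0.69 for IMF, and SLC3A2 at 1.27 and SLC38A2 at -1.11 for title series lie farthest from 0 among tested members.

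No pair of members was called as varying together from animal to animal. Because SLC3A2 and SLC38A2 part the title series, relations were computed within each series, 10 pairs of genes in 10 animals each, 20 relations in all. None passed adjustment (lowest adjusted p = 0.956 for Pearson's r and 0.243 for Spearman's rho, permutation tests). SLC7A5 and its partner SLC3A2 had r = 0.08 among S animals (permutation p = 0.811, adjusted 0.956) and -0.20 among those without S (permutation p = 0.581, adjusted 0.956). Their rho was 0.03 (permutation p = 0.945, adjusted 0.996) and -0.41 (permutation p = 0.248, adjusted 0.974). Without the 2 animals farthest from the median SLC7A5 value r was -0.37 and -0.07.

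The largest r was that of SLC38A2 and SLC1A5 in the animals without S, 0.60 (permutation p = 0.0735, adjusted 0.956), with rho 0.24 (permutation p = 0.513, adjusted 0.974). It fell to 0.04 without the 2 animals farthest from the median SLC38A2 value, so it rests on those animals. SLC43A2 and SLC7A5 had r = 0.41 in the S animals (permutation p = 0.246, adjusted 0.956), with rho 0.49 (permutation p = 0.155, adjusted 0.961), and 0.26 in the others (permutation p = 0.469, adjusted 0.956), with rho 0.09 (permutation p = 0.810, adjusted 0.996). Without the 2 animals farthest from the median SLC43A2 value r was 0.26 and -0.52. The largest rho was that of SLC7A5 and SLC1A5 in the animals without S, 0.77 (permutation p = 0.0122, adjusted 0.243), where r was 0.26 (permutation p = 0.496, adjusted 0.956) and 0.46 without the 2 animals farthest from the median SLC7A5 value. A p that misses the threshold in 10 animals does not show that 2 genes vary apart.

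Outside the list, the genes whose values most resembled SLC43A2 over the 20 animals were sought among 7015 others by Pearson's r, as a description. The median size of r was 0.28. FEN1, a nuclease of DNA replication and repair, had r = 0.81 (rho 0.81), with 0.74 among S animals and 0.83 among those without S. SLC43A2 was picked for its IMF difference, which enters every r over both IMF groups. Within high IMF r was 0.60 for FEN1, and within low IMF 0.79. PAF1, a subunit of a complex that travels with RNA polymerase II, had r = 0.78, LSM6, a subunit of the ring that binds U6 RNA, 0.72, QRICH1, a regulator of transcription in stress of the endoplasmic reticulum, 0.72, and CITED1, a transcriptional coactivator, 0.71.

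The lowest values were those of PTPN6, a tyrosine phosphatase of blood cells, with r = -0.82 (rho -0.79), ARPC2, a subunit of the actin-branching Arp2/3 complex, with -0.77, and CYTH4, an exchange factor for ARF proteins, with -0.73. PTPN6 had signals from 147 to 206 in high IMF and from 117 to 191 in low IMF, and r was -0.83 among S animals and -0.82 among those without S. FEN1 ran from 95.9 to 143 in high IMF and from 109 to 170 in low IMF. Without the 2 animals farthest from the median SLC43A2 value, r was 0.76 for FEN1 and -0.72 for PTPN6, but 0.40 for CITED1. Within high IMF r was 0.41 for QRICH1, -0.67 for PTPN6 and -0.46 for CYTH4, and within low IMF 0.80, -0.87 and -0.80 in the same order. Among S animals r was -0.45 for CYTH4. These 8 genes are the extremes of 7015, and all r come from the same 20 arrays. Among tested members r over all animals was 0.38 for SLC3A2, 0.18 for SLC1A5 and -0.34 for SLC38A2. These values include the differences between title series. In the same order r was -0.08, -0.13 and 0.42 among S animals, and 0.0054, -0.04 and -0.13 among those without S.

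**Figure D3:**
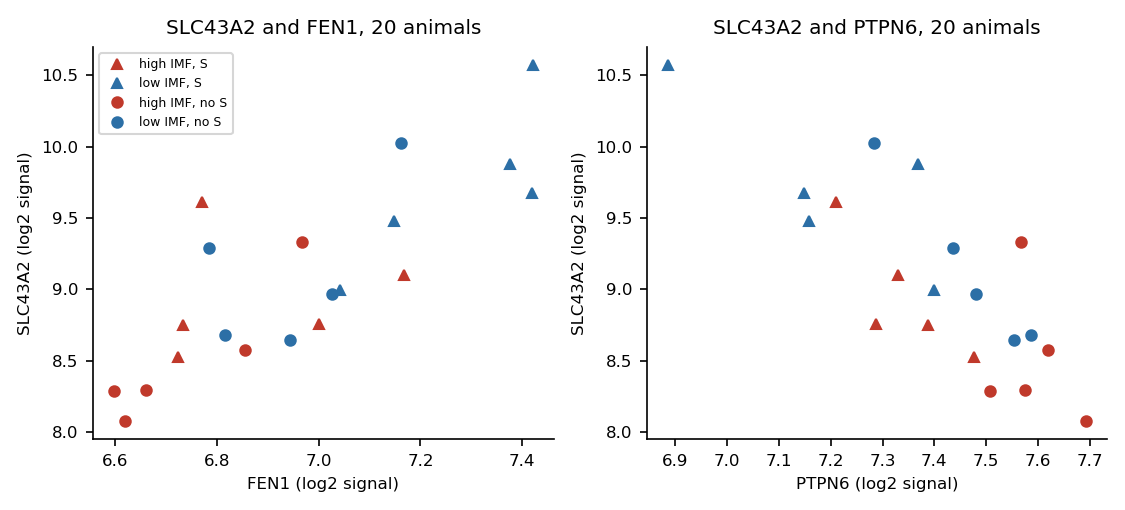
Log2 signal of SLC43A2 (vertical axis) against FEN1 and PTPN6 (horizontal axes) in 20 animals, red for high and blue for low IMF, triangles for S titles and circles for the others. Over all 20 animals SLC43A2 rises with FEN1 (r = 0.81) and falls with PTPN6 (r = -0.82). Within the title series r was 0.74 with S and 0.83 without for FEN1, and -0.83 and -0.82 for PTPN6.

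Other amino acid transporters were compared as a list of 34 genes, of which 18 had a probe set and 10 were tested. For IMF 0 of 10 were called (0% of all probe sets called), with 6 lower and 4 higher values in high IMF and a median log2 difference of -0.03, beside -0.03 for all probe sets. The list's median was 0.01 with arrays centred on their medians. Without the 4 arrays high in albumin it was -0.12 with 7 of 10 lower, beside -0.02 for all probe sets. SLC43A1, the closest relative of SLC43A2 and known as LAT3, had the smallest p of these, with a difference of -0.28 (SE 0.18), -0.44 among S animals and -0.12 among those without S. It averaged 6.50 ± 0.35 in the high IMF bulls and 6.78 ± 0.49 in the low IMF bulls (SD, 10 animals each) and did not pass limma's test (adjusted p = 0.9997). SLC3A1, the heavy chain of the cystine carrier, differed by -0.18 (SE 0.15), but by 0.0051 without the arrays high in albumin and by -0.07 without high IMF replicates 6 and 9. In the first of these settings SLC43A1 differed by -0.45.

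Between title series, 8 of the 10 were called higher in S and 2 lower, a median of 0.37, where 68.3% of all probe sets were called. SLC43A1 (0.70) and SLC6A8, which carries creatine rather than amino acids (0.76), were higher in S without overlap. SLC3A1 (-0.52) and SLC38A3, a glutamine carrier chosen after its value was seen (-0.41), were lower.

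Genes of mTORC1 and its amino acid sensors had 26 of 36 listed genes tested. For IMF 0 were called, 15 had lower values and the median was -0.04, or 0.0091 without high IMF replicates 6 and 9. SESN1, a sestrin of the family that senses leucine, had a difference of -0.52 (SE 0.20), -0.79 among S animals and -0.25 among those without S. This was the only gene of the list with an unadjusted p under 0.05, and its second tested probe set differed by 0.28, the opposite way. NPRL2, a subunit of the GATOR1 brake on mTORC1, differed by 0.14 (SE 0.12), by 0.05 without the arrays high in albumin and by 0.09 without high IMF replicates 6 and 9.

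Between title series 14 mTORC1 genes were called higher and 8 lower in S, 84.6% of the list, where 68.3% of all probe sets were called (33.4% higher and 34.8% lower). LAMTOR1, which anchors the complex to lysosomes, was 0.71 higher in S without overlap. The kinase target EIF4EBP1 was 1.38 higher and the kinase RPS6KB1 1.24 lower (-1.24), both chosen after their values were seen.

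The genes that respond to amino acid shortage through the transcription factor ATF4, a list that leaves out all members, had 18 of 31 tested. For IMF 0 were called, with 8 lower values and a median of 0.02, or 12 lower and -0.03 without the arrays high in albumin. ATF5, a transcription factor of this response, differed by 0.60 (SE 0.40), with 0.88 among S animals and 0.33 among those without S, and by -0.0028 without the 4 arrays high in albumin. PPP1R15A, which ends the response, differed by -0.09 (SE 0.09), and by -0.17 without the arrays high in albumin. Between title series 8 were called higher and 3 lower in S, 61.1% of the list against 68.3% of all probe sets. Without the arrays high in albumin 5 were called higher and 3 lower. SHMT2, a mitochondrial enzyme of serine use, was 1.02 higher in S without overlap, while ATF4 itself, named here with its value known, differed by 0.05 and was not called (adjusted p = 0.45). Of the members, SLC38A2 (-1.11) had lower values in S, while SLC3A2 (1.27), SLC1A5 (0.84), SLC7A5 (0.60) and SLC43A2 (0.52) had higher ones. Whether any member follows this response here was not tested.

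Breakdown of branched-chain amino acids, the main cargo of SLC43A2, had 17 of 23 genes tested. For IMF 0 were called, 12 had lower values and the median was -0.10, and 5 of 17 were lower with a median of 0.05 without high IMF replicates 6 and 9, the arrays with the lowest median signals. Without the arrays high in albumin 6 of 17 were lower and the median was 0.02. PPM1K, the phosphatase that switches on the branched-chain dehydrogenase, had a difference of -0.50 (SE 0.25), -0.82 among S animals and -0.18 among those without S. It differed by -0.25 without replicates 6 and 9, by -0.28 without the arrays high in albumin, and by -0.29, -0.18 and -0.03 on its other probe sets. IVD, an enzyme of leucine breakdown, differed by -0.15 (SE 0.09), and by -0.09 without replicates 6 and 9.

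Between title series this list was mostly lower in S, with 12 called lower and 2 higher and a median of -0.51, where 34.8% of all probe sets were called lower. The 2 higher genes were BCKDHA, a subunit of the dehydrogenase (0.67), and its inhibitory kinase BCKDK, chosen after its value was seen (0.68). The dehydrogenase subunit DBT (-1.23) and ACADSB, an enzyme of isoleucine breakdown (-1.38), both chosen after their values were seen, were lower in S without overlap.

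Enzymes of glutamine, glutamate and alanine metabolism had 8 of 12 tested, 0 called for IMF and a median of -0.06, with 2 called higher and 4 lower in S, 75% of the list against 68.3% of all probe sets. The IMF median was 0.02 without high IMF replicates 6 and 9. OAT, which links ornithine to glutamate, differed by -0.22 for IMF (SE 0.21), by -0.015 for IMF without the arrays high in albumin, and by -0.78 for title series. GPT2, the mitochondrial alanine transaminase, differed by -0.22 (SE 0.21) for IMF, by -0.12 without the arrays high in albumin and by -0.11 without replicates 6 and 9. GLUD1, glutamate dehydrogenase, was 0.30 higher in S on the brighter probe set and differed by -0.63 on its other one.

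**Figure D4:**
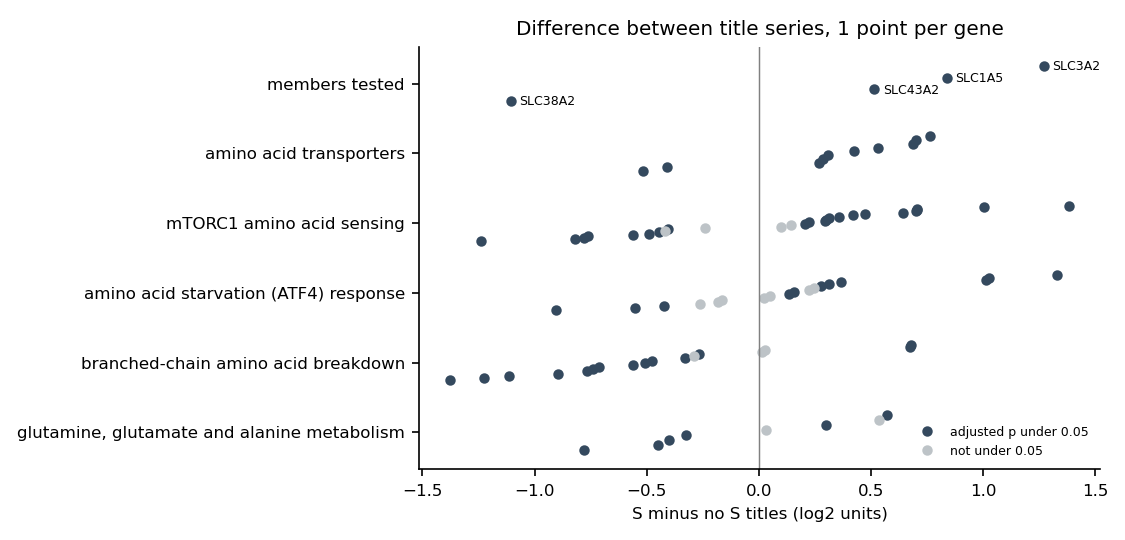
Log2 difference, S minus no S titles, with 1 point per tested gene for the members and 5 gene lists, dark where limma's adjusted p was under 0.05. Genes of branched-chain amino acid breakdown lie mostly left of 0 (12 of 17 called lower in S, against 34.8% of all probe sets) and other amino acid transporters mostly right of it (8 of 10 called higher, against 33.4%). Without the arrays with an albumin signal over 2000, 6 of these 10 transporters were called higher. The 8 called higher on all arrays include SLC6A8, which carries creatine rather than amino acids.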

How the data were processed

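Total RNA of 20 muscle samples was hybridised to 1 Affymetrix GeneChip each. Per the submitters' processing notes, GCOS 1.1.1 and Affymetrix Expression Console 1.1 were used. The deposited values are linear intensities per probe set, and the summarisation and scaling are not given in the sources used here. Of 24128 probe sets, 112 controls were removed, values were taken as log2(value + 1), and the 40% with the lowest mean were left out.

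Genes were named from the platform annotation where it gives 1 symbol (13318 probe sets), and a gene with several probe sets is represented by the brightest. The identifiers of 13283 of these matched the RefSeq gene table, with 0 symbols changed. Coordinates are left out because no build is stated.

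High and low IMF, and S and no S titles with IMF group in the model, were compared with limma 3.58.1 in R 4.3.3 (lmFit, eBayes, two-sided, Benjamini-Hochberg over 14409 probe sets at 0.05). A paired t-test is named in the series text, while the labels pair no animals. Replicates are separate animals, and the number of arrays limits the precision. Correlations have permutation tests with 100000 resamples.

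The members, gene lists, tests and alternatives were chosen with earlier results of these data known. From each list were named the 2 genes with the smallest p for IMF and the next with the smallest p for title series, and, for likeness to SLC43A2, the 5 highest and 3 lowest r. The limma code was tested on simulated data. There the IMF fit without title series called 29.9% of probe sets changed by 0.5 log2 units. It called 79.1% of those changed by 1 and 100% of those changed by 2. A count of 0 called for IMF thus does not show that no gene differs.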

Additional observations from a re-analysis of the deposited data

Results flagged for a closer look

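Each of the 5 genes was checked for an animal standing apart, in 30 groups of 5 or 10 animals. The measure was the gap between an animal and its neighbour as a share of the range (Dixon's criterion). It was taken on log2 values, while the signals given below are linear, and 3 flags arose. Chance flags about 1 in 20 groups. SLC1A5 was at 17.4 in high IMF replicate 5, with the next high IMF animal at 61.5, and was flagged both among all high IMF animals and among those without S. SLC3A2 was at 104 in high IMF replicate 1, with the next high IMF animal without S at 146.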

How the results depend on the processing

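For IMF, 0 probe sets were called by limma in every alternative run, and the SLC43A2 difference stayed between -0.84 and -0.56. No paired analysis was possible because the labels pair no animals. The small IMF differences of other members changed sign in places, none with a call. SLC3A2 was at -0.011 in the S animals alone, -0.19 without the 4 arrays with an albumin signal over 2000 and -0.060 without high IMF replicates 6 and 9, a choice added after seeing the data. SLC38A2 was at 0.0063 with arrays centred on their medians, 0.0095 in the S animals alone, 0.33 without the albumin arrays and 0.11 without replicates 6 and 9, and SLC1A5 at 0.040 in the S animals alone. Leaving out 1 animal gave -0.015 to 0.20 for SLC3A2, -0.15 to 0.054 for SLC38A2, -0.39 to 0.0037 for SLC1A5 and -0.16 to 0.016 for SLC7A5. The interaction of SLC43A2 was 0.076 without the albumin arrays.

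For title series, 7317 to 12549 probe sets were called. The 12549 were among 24016 probe sets tested without the filter, while 14409 were tested with it, so these counts are not of the same total. SLC3A2 (1.17 to 1.37) and SLC38A2 (-1.18 to -1.02) were called in every alternative run. SLC43A2 missed the threshold without the filter (0.52, limma adjusted p = 0.0524). It also missed it by an ordinary t-test of the title series term, with IMF group in the model (adjusted p = 0.0524). So it did without the IMF covariate (0.52, limma adjusted p = 0.0738), in high IMF animals alone (0.43) and in low IMF animals alone (0.60). The same held without the albumin arrays (0.51) and without replicates 6 and 9 (0.46). With 1 animal left out SLC43A2 ran from 0.41 to 0.62. SLC1A5 missed it without the albumin arrays (0.60) and in low IMF animals alone (0.56), and ran from 0.64 to 0.95 with 1 animal left out. The second SLC38A2 probe set was at -1.15 with a pseudocount of 16. Over all 20 animals 3 of 10 member pairs correlated, but 0 within either title series or with group means removed, and 5 after either other scaling. The cause of these changes was not tested.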
